A study of Rattus norvegicus with 12 samples.

Results

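Rat cells labelled cardiomyocytes were compared after 4 h and after 70 min of SIN-1 (3-morpholinosydnonimine), across all genes that an array platform names singly. The comparison used 6 of the 12 arrays of the series, 3 at each time, taken by their time labels, and 18166 genes were tested. All cells were primary and wild type and grew in DMEM/F12 with fetal bovine and horse serum. The 3 other arrays used for reference are labelled control, for both treatment and time, and 3 further arrays stand at 8 h of SIN-1. The sources used here name no SIN-1 concentration, no vehicle for the controls and no age of the animals. The design text describes biological triplicates without saying whether cultures were separate, so p-values measure the spread between these arrays. Values are log2 expression.

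SIN-1 breaks down into nitric oxide and superoxide, which combine to peroxynitrite, an oxidant and nitrating agent. Cells answer such stress in waves: immediate early transcription factors and feedback inhibitors of kinase signalling come first and decay quickly, while antioxidant enzymes under the transcription factor NRF2 and growth arrest genes under p53 and FOXO factors can build up later. Comparing an early with a later time asks which transcripts had moved on between them.

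The labelled cell type was set against its defining markers. In the controls Myh6, Myh7, Ttn, Ryr2, Actn2, Mybpc3, Tbx5 and Myl3 averaged between 3.64 and 4.48, near the median of 4.33 of the probes that the platform table does not list, while Tnnt2 averaged 5.99, Tnnc1 7.22, Pln 8.16 and Atp2a2 9.52. Of 20 cardiomyocyte markers tested, 12 lay below the median gene mean of 5.75. The matrix and smooth muscle genes Col1a1, Fn1, Postn and Tagln stood at 12.75, 12.81, 11.68 and 12.40. Other members of their lists were low, such as Tcf21 at 4.75, Pdgfra at 5.77, Des at 5.19 and Myh11 at 5.59. Below the median gene mean lay 5 of 23 fibroblast and matrix markers and 4 of 13 smooth muscle and pericyte markers. Macrophage markers averaged between 4.46 and 4.75 on every array used, and 19 of 20 lay below the median gene mean. The cells are therefore called by their label. 3 arrays had a higher median signal than the rest, 70 min replicate 2 (5.11), 70 min replicate 3 (5.12) and 4 h replicate 3 (5.09), where the other arrays lay at 4.98 to 5.05, and a principal component analysis, whose leading axis held 33.3% of the variance, put 70 min replicates 2 and 3 farthest out.

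Between 70 min and 4 h, 814 genes were higher at 4 h (4.48% of those tested) and 572 were lower (3.15%), by limma at an adjusted p under 0.05. At least 1.5-fold were 256 of the higher genes (1.41%) and 140 of the lower (0.771%). The higher genes included Pi15, Bcl2l11, Sesn3 and Abcc4, with 8 of 29 FOXO-linked genes and 7 of 30 NRF2 targets. The lower genes included the NR4A nuclear receptors, with 9 of 22 genes of an ERK and MAP kinase feedback list, 9 of 27 G1/S genes and 11 of 50 ribosome assembly genes. The median difference over all genes was -0.01 and the median SE 0.13. In bulk RNA, fewer cells of a type and less RNA per cell cannot be told apart. The balance turned with scaling: 58.7% of called genes were higher here, 73.2% with arrays centred on their medians and 46.6% when the array median entered as a covariate. The count of 1386 called genes became 885 without 70 min replicate 3 and 909 without 4 h replicate 2. The 814 higher genes became 503, 489 and 500 without 70 min replicate 2, 70 min replicate 3 or 4 h replicate 2. Without both 70 min replicates 2 and 3, with the remaining 70 min array assumed to have the spread of the other groups, 156 genes were higher and 196 lower, and 336 of these 352 had been called with all arrays. Every one of the 1386 kept its sign in each alternative in which it was tested as a gene. Signs had little room to change. The replicate block, the other forms of the prior and the compared arrays alone leave the difference itself unchanged. All alternatives reuse arrays by which these genes were chosen.

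**Figure D1:**
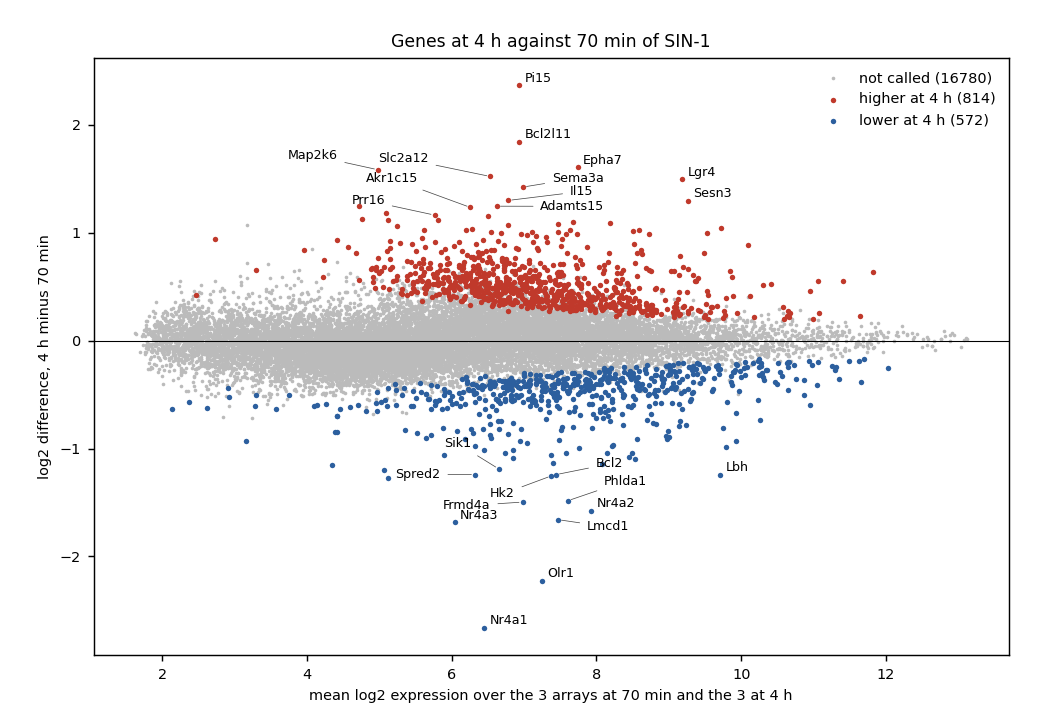
Each point is 1 of 18166 genes, with its mean log2 expression over the 6 compared arrays on the horizontal axis and its log2 difference, 4 h minus 70 min, on the vertical axis. The 814 genes higher at 4 h are red and the 572 lower are blue, and the labelled genes are the 12 leading ones in each direction, from Pi15 at 2.37 to Nr4a1 at -2.66.

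Genes named below as higher or lower kept their call whenever any 1 of the 6 arrays was left out and under the other alternatives given in the processing summary except an added fold threshold, unless the paragraph says otherwise. The difference is always 4 h minus 70 min on the log2 scale, with the model's SE. Counts of list members stand against 4.48% higher and 3.15% lower over all genes tested. Those shares are a low yardstick for lists of bright genes. Of the 1386 called genes 1259 were also called when genes at or above the median gene mean were tested alone. Among the lists close to those shares were heat shock (5.88% higher, 2.94% lower), sarcomere (2.7% and 5.41%) and base excision repair (4.76% and 4.76%).

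The largest rise was that of Pi15, which encodes a secreted peptidase inhibitor. It stood at 5.93, 5.53 and 5.80 at 70 min and at 7.61, 8.67 and 8.06 at 4 h, a 5.15-fold difference (2.37 ± 0.21, limma adjusted p = 9.49e-07). The groups were far apart, and 4 h replicate 1 was the lowest of its group. Map2k6, a kinase that activates p38, was at 4.14, 4.44 and 3.98 at 70 min, close to the level of unlisted probes, and at 5.87, 5.99 and 5.46 at 4 h (1.58 ± 0.15). Slc2a12, a glucose transporter gene, went from 5.98, 5.66 and 5.68 to 7.24, 7.51 and 7.13 (1.52 ± 0.11). All 3 genes had been lower than every control array at 70 min and overlapped the controls again at 4 h.

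Lgr4, a receptor for R-spondins that strengthens Wnt signalling, behaved differently. It stood at 8.64, 8.33 and 8.34 at 70 min, at 9.86, 10.04 and 9.90 at 4 h (1.496 ± 0.09) and at 9.43, 9.26 and 9.48 in the controls, so that its arrays lay below all controls at 70 min and above all of them at 4 h. Il15, a cytokine gene, had its arrays in the same order, from 6.38, 6.21 and 5.81 to 7.34, 7.58 and 7.38 (1.299 ± 0.12) around controls at 7.20, 7.13 and 7.33. At 4 h, however, Il15 was not called against control by limma (adjusted p = 0.457), while Lgr4 was (0.00214). Of the remaining leading genes, Akr1c15, an aldo-keto reductase gene, was higher by 1.23 ± 0.13 and Prr16 by 1.16 ± 0.19, both overlapping the controls at 4 h. The smallest difference among the 12 leading higher genes was 2.24-fold, and the largest limma adjusted p among all 24 leading genes was 0.000746.

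**Figure D2:**
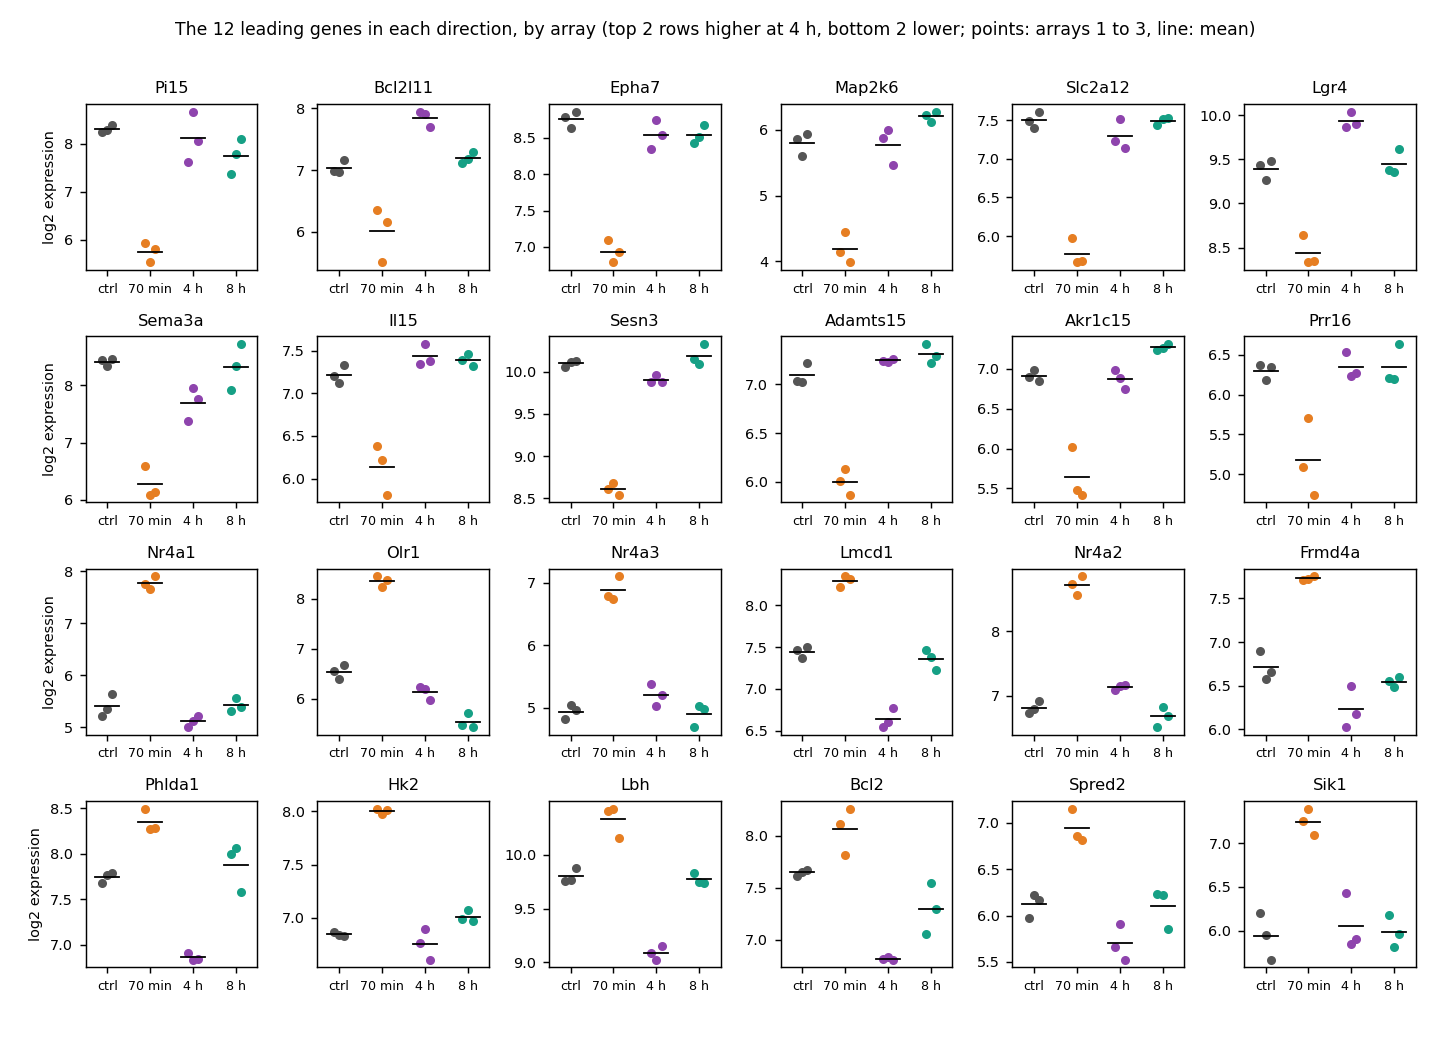
Log2 expression of the 12 leading genes in each direction on all 12 arrays, with a panel for each gene, points for arrays 1 to 3 of each group and a line for the group mean. In every panel the 3 arrays at 70 min and the 3 at 4 h do not overlap, as the rule for naming required, and the vertical scale differs between panels.

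All 3 NR4A genes, which encode orphan nuclear receptors and are classic immediate early genes, fell. Nr4a1, with the largest fall of any gene tested, stood at 7.76, 7.67 and 7.90 at 70 min and at 5.00, 5.12 and 5.22 at 4 h, 6.33-fold lower (-2.66 ± 0.13, limma adjusted p = 2.93e-09). Its controls were at 5.21, 5.35 and 5.64, so the 4 h arrays overlapped them. Nr4a3 fell from 6.80, 6.75 and 7.11 to 5.37, 5.03 and 5.20 (-1.68 ± 0.14), overlapping its controls. Nr4a2 fell from 8.73, 8.56 and 8.85 to 7.09, 7.15 and 7.16 (-1.58 ± 0.10) and was still above all its controls, at 6.73, 6.79 and 6.91.

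Several other leading genes were lower at 4 h than at any control array. Olr1, the gene of a scavenger receptor for oxidised lipoprotein, went from 8.45, 8.24 and 8.38 to 6.23, 6.18 and 5.98 (-2.23 ± 0.11), below controls at 6.56, 6.40 and 6.67, and was lower still at 8 h at 5.48, 5.72 and 5.43. Lmcd1, a LIM domain protein gene, stood at 8.22, 8.35 and 8.32 and then at 6.54, 6.61 and 6.77 (-1.66 ± 0.09), with its controls between at 7.46, 7.37 and 7.50. Phlda1 fell from 8.49, 8.27 and 8.28 to 6.91, 6.84 and 6.84 (-1.48 ± 0.11), with controls at 7.68, 7.77 and 7.78. Frmd4a and Lbh followed the same course, at -1.496 ± 0.12 and -1.25 ± 0.07, each above all controls first and below all controls later.

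Set beside the controls and 8 h, the genes higher at 4 h had a median group mean of 7.32 in the controls, 6.79 at 70 min, 7.33 at 4 h and 7.34 at 8 h. For the genes lower at 4 h these medians were 7.58, 8.00, 7.49 and 7.59 in the same order. Of the 814 higher genes, 442 lay below all controls at 70 min and overlapped them at 4 h, 153 lay below all controls at both times and 91 rose above all controls from a level that overlapped them. Of the 572 lower genes, 264 lay above all controls at 70 min and overlapped them at 4 h, 111 lay above at both times and 72 fell below all controls from an overlapping level. Many genes that were not called took the same courses. Of these 16780 genes, 1367 lay below all controls and then overlapped them, 648 lay below at both times and 785 rose above from an overlapping level. Another 1559 lay above all controls and then overlapped them, 1013 lay above at both times and 594 fell below from an overlapping level. These counts are a description, since the genes were chosen by a difference that uses the same arrays. Over all genes, 6.76% were higher and 7.81% lower at 70 min than in the controls, and 2.08% and 1.77% at 4 h. Against control at 8 h, 3 of the 814 were higher and none was lower, and 1 of the 572 was higher and 1 lower; over all genes 0.022% were higher and 0.0055% lower by limma.

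Bcl2l11 and Bcl2, of the BCL2 family that sets the threshold for mitochondrial apoptosis, moved apart. Bcl2l11, the pro-apoptotic family member BIM, stood at 6.36, 5.50 and 6.16 at 70 min and at 7.95, 7.91 and 7.69 at 4 h, 3.59-fold higher (1.84 ± 0.16, limma adjusted p = 8.94e-07). Bcl2, which encodes the founding anti-apoptotic member, stood at 8.11, 7.81 and 8.26 and then at 6.82, 6.83 and 6.81, 2.36-fold lower (-1.24 ± 0.12, limma adjusted p = 2.49e-06). Both crossed their controls, Bcl2l11 upward from below 6.98, 6.97 and 7.16 and Bcl2 downward from above 7.62, 7.65 and 7.67. Of 13 family genes tested 1 was higher and 3 lower, with a median difference of -0.14 and only 3 values above 0. The family members Mcl1, Bax and Bbc3 were not tested. The contrast therefore describes Bcl2l11 and Bcl2 and not the family. The other called members were Bok at -0.58 ± 0.10 and Bcl2l1 at -0.37 ± 0.09. Without 70 min replicates 2 and 3 the calls of Bok (adjusted p = 0.104) and Bcl2l1 (0.248) ended. The call of Bcl2l1 ended also without 70 min replicate 2 alone (0.104), with arrays centred (0.105) and with the compared arrays alone (0.0939), and both calls ended without the 3 arrays of highest median (0.0771 for Bok and 0.309 for Bcl2l1).

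Among NRF2 targets, 7 of 30 genes were higher at 4 h and 1 was lower, with a median difference of 0.14. Abcc4, an efflux transporter of conjugates and cyclic nucleotides, stood at 8.09, 8.09 and 8.05 at 70 min, below all controls (8.74, 8.65 and 8.81), and at 9.18, 9.08 and 9.06 at 4 h, above all of them (1.03 ± 0.07, limma adjusted p = 3.58e-08). Ephx1, the microsomal epoxide hydrolase, was higher by 0.89 ± 0.08, Ptgr1, a reductase of reactive aldehydes, by 0.80 ± 0.08 and the aldehyde oxidase gene Aox1 by 0.76 ± 0.13. Nqo1, the quinone reductase, was at 11.12, 11.07 and 11.19 at 70 min, overlapping its controls, and at 11.67, 11.71 and 11.67 at 4 h (0.55 ± 0.04).

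The exception was Hmox1, which encodes heme oxygenase and is a classic oxidant-induced gene. It stood at 9.56, 9.43 and 9.31 at 70 min and at 8.97, 8.81 and 8.76 at 4 h (-0.59 ± 0.08, limma adjusted p = 0.000159), while its controls were lower at 8.43, 8.26 and 8.30. The subunit genes of glutathione synthesis did not pass between the times. Gclc was at 9.03 ± 0.11 (SD, n = 3) at 70 min and 9.07 ± 0.09 at 4 h (difference 0.04 ± 0.07, limma adjusted p = 0.805), and Gclm at 7.70 ± 0.12 and 7.83 ± 0.24 (0.14 ± 0.12, limma adjusted p = 0.592). Nos2, the inducible nitric oxide synthase, stood at -0.10 ± 0.18 (limma adjusted p = 0.818) at a level near that of unlisted probes.

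Of 25 genes of peroxide and superoxide scavenging 5 were higher and none was lower by limma, with a median of 0.12; at an unadjusted p under 0.05 9 were higher and 0 lower. Without 70 min replicate 1, 1 was called lower. Sesn3, a sestrin that restrains mTORC1, stood at 8.62, 8.68 and 8.54 at 70 min and at 9.88, 9.96 and 9.88 at 4 h (1.295 ± 0.06, limma adjusted p = 2.93e-09), still just below controls at 10.06, 10.11 and 10.13. Txnip was higher by 0.89 ± 0.05 and the glutaredoxin gene Glrx by 0.81 ± 0.10. The list was not limited to scavengers, since Txnip is the inhibitor of thioredoxin. Without 4 h replicate 2, and also without 70 min replicates 2 and 3, the count was 3. Of 11 metallothionein and zinc transport genes 2 were higher and none lower (median 0.03, turning to -0.02 when the array median entered as a covariate). Mt1, a metal-binding thiol protein, was at 8.81, 8.73 and 8.77 and then at 9.67, 9.38 and 9.60 (0.78 ± 0.08), and the difference of its other probe was 0.67.

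Genes of the aryl hydrocarbon receptor, a ligand-activated transcription factor that induces cytochrome P450 enzymes and its own repressor, were called in both directions, 3 of 8 higher and 2 lower. Cyp1a1 stood at 5.11, 5.36 and 5.28 at 70 min and at 6.43, 6.49 and 6.19 at 4 h (1.12 ± 0.15, limma adjusted p = 0.000105), with its controls at 4.45, 4.51 and 4.85. The receptor gene Ahr fell from 9.58, 9.68 and 9.64 to 8.73, 8.94 and 8.89 (-0.78 ± 0.06), from above all controls to below all of them. Ahrr, the repressor, stood at 6.45, 6.25 and 6.24 and then at 6.83, 6.92 and 6.67 (0.49 ± 0.11, limma adjusted p = 0.0109). Cyp1b1 was lower at 4 h, at 8.81, 8.72 and 8.76 and then at 8.26, 8.31 and 8.19 (-0.51 ± 0.08), and remained above its controls. The call of Ahrr ended without 70 min replicate 3 (adjusted p = 0.0556), without 4 h replicate 2 (0.0604), without 70 min replicates 2 and 3 (0.402) and without the 3 arrays of highest median (0.271), and that of Cyp1b1 in the last setting (0.0624).

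The promoters of these genes are shown because the receptor binds a short core motif, GCGTG. The RefSeq promoter table (assembly GRCr8) was searched over the 250 bases before each gene's start on both strands. That motif was present in 4 of the 6 promoters of this list that the table holds, 66.7%. It was in 27.2% of all 27457 promoters and 35.1% of those of genes tested here. The share is not particular to this list. It was 52.9% for the YAP and TEAD list, 50% for the ERK and MAP kinase feedback list and 47.4% for the p53 list. For the E2F and G1/S list it was 27.8%. Cyp1a1 has no entry in the promoter table. Each sequence below runs in the gene's direction, with the motif or its reverse complement in capitals. The stretches around the matches of Ahrr, Cyp1b1 and Nqo1 were as follows.
Ahrr, chr1:30822052-30822191, plus strand: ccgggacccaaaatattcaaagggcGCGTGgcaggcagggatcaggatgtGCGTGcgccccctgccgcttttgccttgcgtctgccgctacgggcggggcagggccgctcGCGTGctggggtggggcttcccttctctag
Cyp1b1, chr6:21094459-21094564, plus strand: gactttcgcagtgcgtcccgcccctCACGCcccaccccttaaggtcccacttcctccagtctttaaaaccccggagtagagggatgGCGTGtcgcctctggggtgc
Nqo1, chr19:52220268-52220302, minus strand: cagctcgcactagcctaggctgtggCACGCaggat
The Ahrr promoter held 3 matches, the Cyp1b1 promoter 2 and the Nqo1 promoter 1, while Ahrr and Nqo1 were higher at 4 h and Cyp1b1 was lower. No match lay in this window of Ahr. A match is a description of these letters.

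Feedback genes of ERK and MAP kinase signalling are induced by the pathway they restrain. The list of these genes was not limited to them, since it also held Map2k6, which activates p38. Of its 22 genes 9 were lower at 4 h and 3 higher, with a median of -0.28. Spred2, an inhibitor of RAF activation, fell from 7.15, 6.86 and 6.81 to 5.67, 5.91 and 5.53 (-1.24 ± 0.14, limma adjusted p = 1.51e-05), from above all controls to below them. Dusp7, an ERK phosphatase, stood at -0.68 ± 0.08, Errfi1, an inhibitor of the EGF receptor, at -0.67 ± 0.07, the p38 kinase activator Map2k3 at -0.66 ± 0.10 and Spred1 at -0.56 ± 0.10. Map2k6, itself an activator and not a feedback gene, had the largest rise of the list at 1.58. Dusp1, a phosphatase of p38 and JNK, was also higher, from 8.05, 8.14 and 8.15 to 8.51, 8.50 and 8.51 (0.40 ± 0.07), although both times lay below its controls at 9.28 to 9.31, and its call ended without the 3 arrays of highest median (adjusted p = 0.0514). In that setting 5 of the list were lower and 1 was higher.

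Of 36 NR4A and other immediate early genes, 10 were lower and 3 higher, with a median of -0.16. After the NR4A genes came Junb, an AP-1 subunit gene, which fell from 6.85, 7.20 and 6.86 to 6.09, 6.23 and 5.97 (-0.87 ± 0.14, limma adjusted p = 0.000612), from above all controls to below them. Its call ended without 70 min replicates 2 and 3 (adjusted p = 0.0601) and without the 3 arrays of highest median (0.124). Klf4, a zinc finger transcription factor, was lower by -0.80 ± 0.10, Klf10 by -0.60 ± 0.11 and the small GTPase gene Rhob by -0.49 ± 0.07. Plk2, a polo-like kinase gene, was higher by 0.45 ± 0.07. Egr1, Fos and Atf3 did not pass the test. Egr1 stood at 6.995 at 70 min and 7.01 at 4 h (0.02 ± 0.09, limma adjusted p = 0.937), both below controls at 8.36 to 8.39, Fos at -0.18 ± 0.15 (limma adjusted p = 0.567) and Atf3 at 0.21 ± 0.13 (limma adjusted p = 0.394). Without 4 h replicate 1 the 3 higher genes became 1, and without 70 min replicates 2 and 3 the lower count was 7; without the 3 arrays of highest median it was 6.

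Targets of p53, the transcription factor of the DNA damage response, were higher in 9 of 24 cases and lower in 1, with a median of 0.18. Ccng2, an atypical cyclin of growth arrest, is counted here and also in the FOXO list below. It stood at 7.24, 6.69 and 6.64 at 70 min and at 7.78, 7.87 and 7.67 at 4 h (0.92 ± 0.12, limma adjusted p = 0.000122). Gadd45a, which binds PCNA and the cell cycle kinase CDK1, went from 8.18, 8.16 and 8.10 to 8.96, 9.01 and 8.91 (0.81 ± 0.06), from below all controls to above them. Tnfrsf10b, a death receptor for TRAIL, was the lower one, from 7.83, 7.64 and 7.53 to between 6.99 and 7.04 (-0.66 ± 0.10). Cdkn1a, the CDK inhibitor p21, was higher by 0.28 ± 0.06 (limma adjusted p = 0.00421), a call that ended when the prior variance had no trend (adjusted p = 0.0673), without 70 min replicates 2 and 3 (0.0931) and without the 3 arrays of highest median (0.122). Without both 70 min replicates the 9 became 5, and without the 3 arrays of highest median 4; the 1 lower became 2 without 4 h replicate 1.

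FOXO and insulin-linked genes were higher in 8 of 29 cases and lower in 2, with a median of 0.12. Besides Sesn3, Txnip and Ccng2, which this list shares with those above, Pik3ip1, an inhibitor of PI3 kinase, stood at 6.86, 6.95 and 6.97 at 70 min and at 8.15, 7.90 and 7.96 at 4 h (1.08 ± 0.08, limma adjusted p = 2.1e-07), crossing controls at 7.68 to 7.71. Without 70 min replicates 2 and 3 the counts were 5 higher and none lower. The 2 lower were 0 without 70 min replicate 3 or 4 h replicate 2 and 1 without any other of the 6 arrays. Autophagy and lysosome genes had 5 of 29 higher and none lower, with a median of 0.07, but without 70 min replicate 2, 70 min replicate 3, 4 h replicate 1 or 4 h replicate 2 the count was 2 each time, and without both 70 min replicates it was 0.

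**Figure D3:**
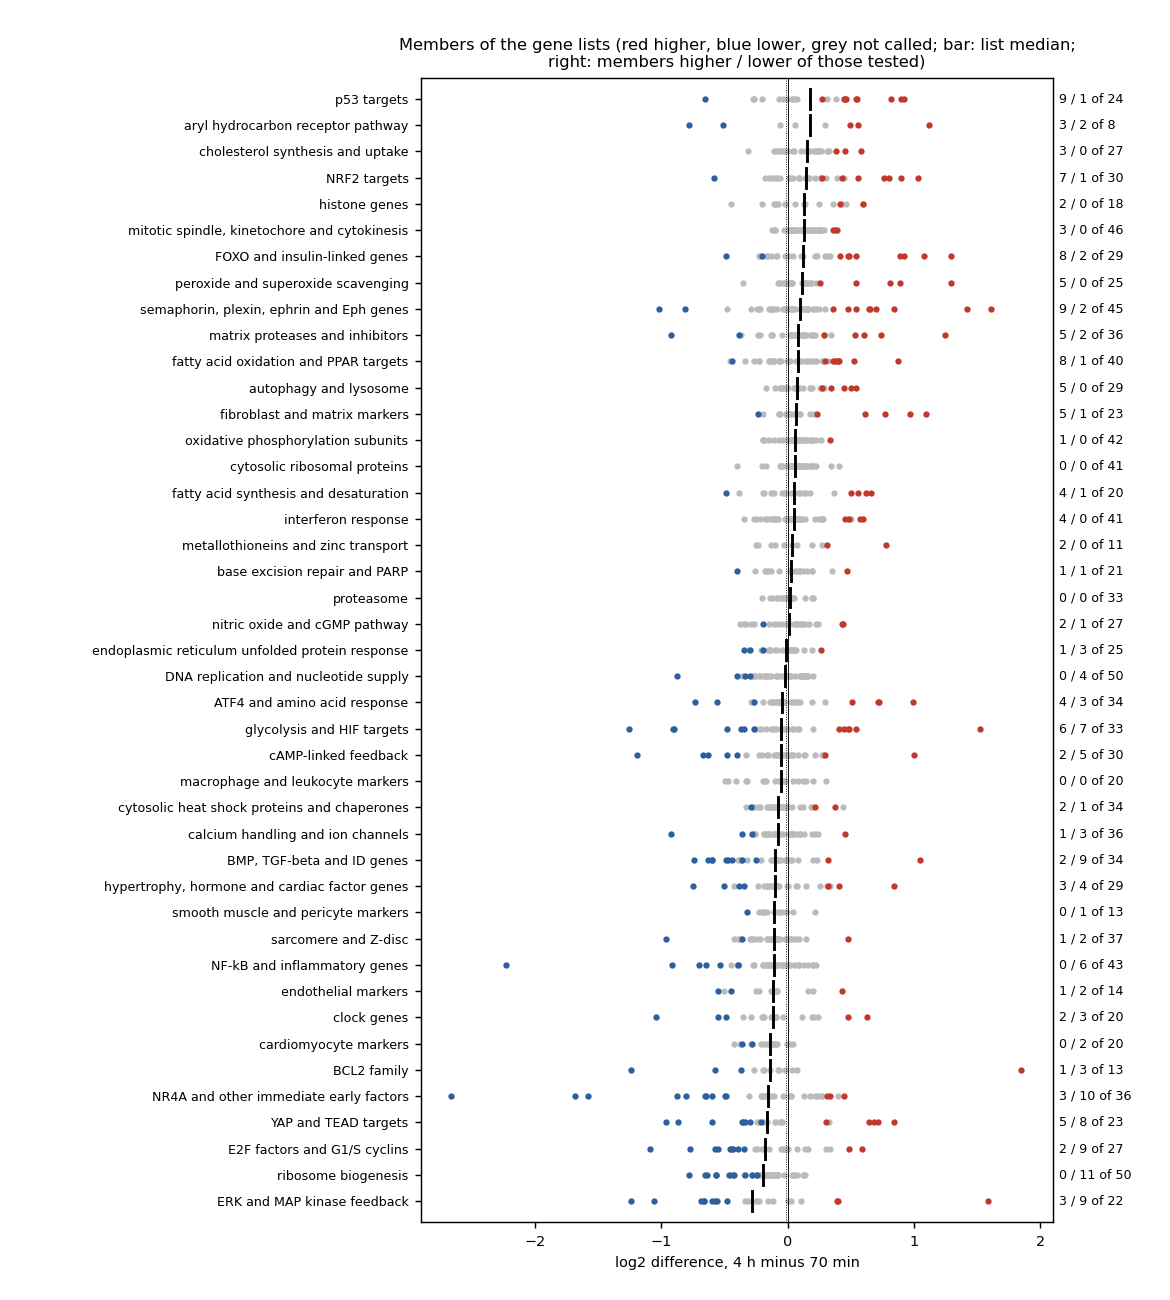
Log2 difference, 4 h minus 70 min, of every tested member of the 43 gene lists, one row for each list, ordered by the list median (bar). Members higher at 4 h are red, members lower blue and the rest grey; numbers at the right give members higher and lower of those tested, and the dotted line marks the median of all genes at -0.01.

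E2F factors, G1/S cyclins and their regulators, which carry cells into S phase, were lower in 9 of 27 cases and higher in 2, with a median of -0.18. Hmga2, a chromatin protein, fell from 7.54, 7.14 and 7.47 to 6.27, 6.43 and 6.20 (-1.09 ± 0.15, limma adjusted p = 0.000193). Ccnd1, cyclin D1, fell from 9.25, 9.39 and 9.35 to 8.79, 8.66 and 8.82 (-0.57 ± 0.07), still above its controls. Rbl2, a pocket protein that represses E2F targets in resting cells, was higher by 0.59 ± 0.10. Cdkn1b, the CDK inhibitor p27, was also higher (0.48 ± 0.07), a call that ended without 70 min replicates 2 and 3 (adjusted p = 0.0684) and without the 3 arrays of highest median (0.1). Without 70 min replicate 1 the higher count was 4. Without 70 min replicate 3 the lower count was 5, without both 70 min replicates 3, and with arrays centred 4.

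Cdc25a, a phosphatase that activates CDK2, was lower by -0.55 ± 0.10 (limma adjusted p = 0.00259), a call that ended without 70 min replicates 2 and 3 (adjusted p = 0.0549) and without the 3 arrays of highest median (0.108). Its promoter is shown because it was the only one among the called members of this list in the table to hold an E2F motif, TTTGGCGC or TTTCGCGC, on either strand of the 250 bases before the start. Those letters were in 2 of 18 promoters of the list (11.1%) and in 0.67% of all promoters.
Cdc25a, chr8:118742798-118742844 of GRCr8, plus strand, motif in capitals: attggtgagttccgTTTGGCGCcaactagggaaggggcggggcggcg

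Components of DNA replication had few calls. Their list averaged 6.59 in the controls, 7.08 at 70 min, 7.005 at 4 h and 6.58 at 8 h, and 4 of 50 members were lower at 4 h with none higher by limma (0 higher and 9 lower at an unadjusted p under 0.05). The median of -0.02 became 0.03 with arrays centred, -0.14 with the array median as covariate and -0.16 without 70 min replicates 2 and 3. Cdc6, which loads the replicative helicase, had the largest fall of the list, from 6.24, 5.99 and 6.20 to 5.27, 5.30 and 5.23 (-0.87 ± 0.12), overlapping controls at 5.11 to 5.31. Mcm6, a helicase subunit, and Pcna, the sliding clamp, stood at -0.13 ± 0.09 (limma adjusted p = 0.44) and -0.18 ± 0.07 (limma adjusted p = 0.147). The count of 4 was 2 without 70 min replicate 2, 70 min replicate 3 or 4 h replicate 2 and 1 without 4 h replicate 3 or with arrays centred, and it was 6 with the array median as covariate. Of 46 mitotic genes 3 were higher, a count that ran from 0 without 70 min replicate 2, 70 min replicate 3 or 4 h replicate 1 to 1 without 4 h replicate 2 and 5 without 70 min replicate 1 or 4 h replicate 3. Of 18 histone genes 2 were higher and none lower (1 lower without 4 h replicate 3); 5 were higher without 70 min replicate 1, and 1 without 70 min replicate 2, 70 min replicate 3, 4 h replicate 2 or 4 h replicate 3.

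Genes of ribosome assembly were lower at 4 h, while none of the ribosome's own protein genes was called. Of 50 genes of ribosome biogenesis 11 were lower at 4 h and none higher by limma, with a median of -0.19, and at an unadjusted p under 0.05 23 were lower and 0 higher. Wdr43, of the small subunit processome, fell from 8.86, 8.61 and 8.82 to 8.07, 8.15 and 7.73 (-0.78 ± 0.10, limma adjusted p = 7.18e-05). Gnl3, nucleostemin, was lower by -0.66 ± 0.13 and Nop56, a core protein of box C/D ribonucleoproteins, by -0.46 ± 0.06. The list averaged 7.49 in the controls, 7.77 at 70 min, 7.56 at 4 h and 7.48 at 8 h. None of 41 cytosolic ribosomal protein genes and none of 33 proteasome subunit genes was called by limma in either direction; at an unadjusted p under 0.05 7 and 3 of them were higher and 1 and 1 lower. Without 70 min replicate 1, 3 ribosomal protein genes were called higher, and without 4 h replicate 3, 2 of them and 1 proteasome gene. Without 4 h replicate 3 the 11 became 7, without 70 min replicates 2 and 3 they became 5 and with arrays centred 6.

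**Figure D4:**
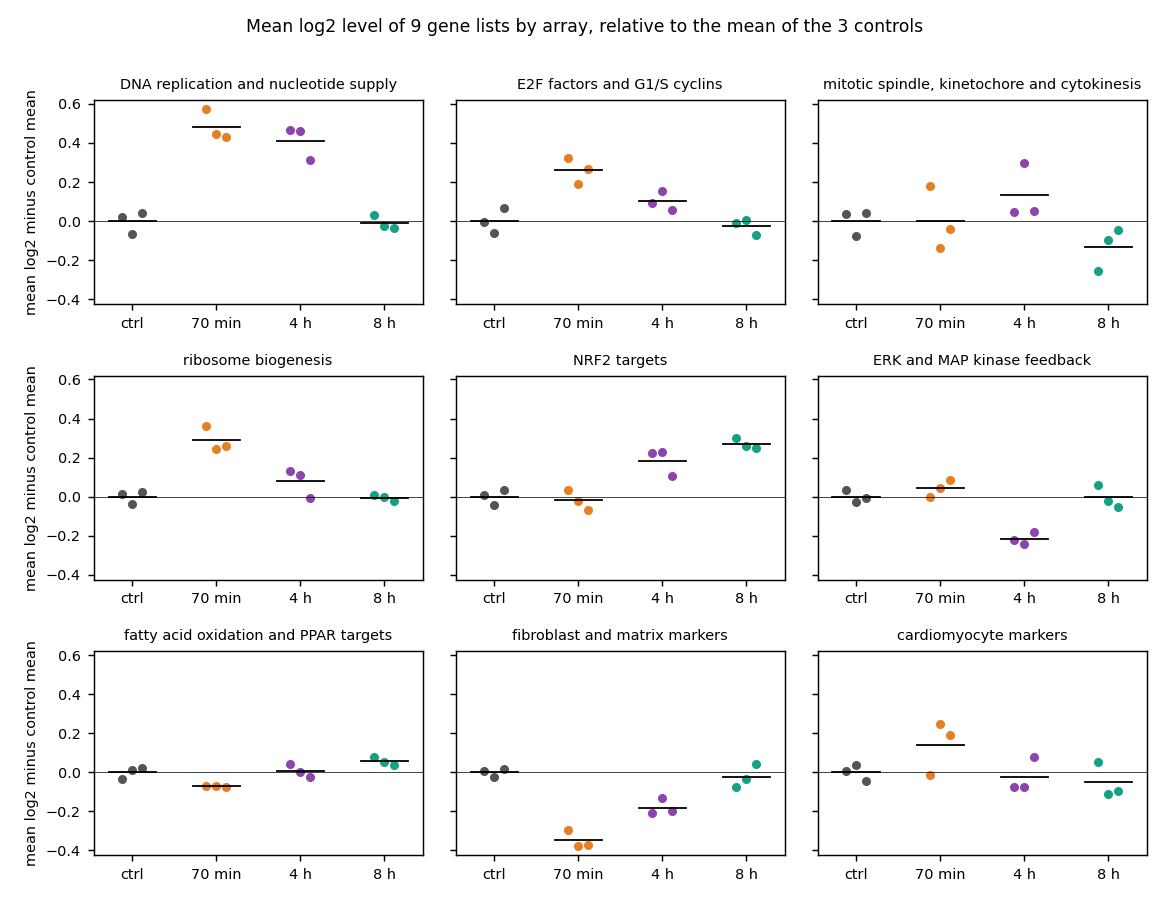
Mean log2 level of 9 gene lists on each of the 12 arrays, minus the mean of the 3 controls for the same list; points are arrays 1 to 3 of each group and lines the group means. DNA replication genes lie above the controls at 70 min and 4 h, ribosome biogenesis genes lie highest at 70 min, and the fibroblast and matrix markers lie lowest at 70 min and between at 4 h.

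Glycolysis genes and targets of the hypoxia factor HIF were called in both directions, 6 higher and 7 lower of 33. Hk2, a hexokinase gene, fell from 8.03, 7.97 and 8.02 to 6.76, 6.89 and 6.60 (-1.25 ± 0.09, limma adjusted p = 8.56e-08), back among its controls at 6.83 to 6.86, while Slc2a12 rose as given above. Slc16a3, a lactate exporter, was lower by -0.90 ± 0.13, a call that ended without the 3 arrays of highest median (adjusted p = 0.0806). Without 70 min replicate 2 or 70 min replicate 3 the higher count was 3, and without 4 h replicate 2 the lower count was 4. Without both 70 min replicates 1 was higher and 2 were lower.

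Among the lipid genes that were called most were higher at 4 h, while most members of each list were not called. Over all genes tested 4.48% were higher and 3.15% lower. Among 40 PPAR targets and fatty acid oxidation genes 8 were higher and 1 lower, with a median of 0.08, and of 20 genes of fatty acid synthesis and desaturation 4 were higher and 1 lower. Pdk4, a kinase that shuts off pyruvate oxidation, went from 5.59, 5.34 and 5.86 to 6.48, 6.58 and 6.37 (0.88 ± 0.13, limma adjusted p = 0.000399). Scd2, a fatty acid desaturase, rose from 8.44, 8.32 and 8.43 to 9.13, 9.04 and 8.999 (0.66 ± 0.07), below controls at 9.33 to 9.48. Fads1, another desaturase, was higher by 0.50 ± 0.07, and Lpin1, a phosphatidate phosphatase gene, by 0.62 ± 0.13. The count of 8 was 5 without 70 min replicate 2 or 70 min replicate 3, 4 without 4 h replicate 1 and 1 without both 70 min replicates. The 1 lower oxidation gene lost its call without 70 min replicate 3, 4 h replicate 1 or 4 h replicate 3, and the 1 lower synthesis gene without 70 min replicate 1, 70 min replicate 3 or 4 h replicate 1. Cholesterol synthesis and uptake genes had 3 of 27 higher, 1 without 70 min replicate 2, 70 min replicate 3, 4 h replicate 1 or 4 h replicate 2, 6 without 4 h replicate 3 and 0 without both 70 min replicates. Of 42 oxidative phosphorylation subunits 1 was higher, 3 without 70 min replicate 1 and 0 without 70 min replicate 2 or 4 h replicate 1.

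Of 34 amino acid stress genes under ATF4 4 were higher and 3 lower. Chac1, which degrades glutathione, stood at 8.22, 8.42 and 8.06 at 70 min and at 9.28, 9.13 and 9.27 at 4 h (0.99 ± 0.09, limma adjusted p = 1.04e-06), from below all controls to above them. Ddit3, the stress factor CHOP, was higher by 0.73 ± 0.09, the pseudokinase gene Trib3 by 0.71 ± 0.10 and Nupr1, a stress-induced chromatin protein, by 0.51 ± 0.06. The amino acid transporter genes Slc7a1 and Slc7a5 were lower, by -0.74 ± 0.07 and -0.56 ± 0.06. Of 25 genes of the endoplasmic reticulum's response to unfolded protein 1 was higher and 3 were lower, and the 3 became 1 without 4 h replicate 2 or 4 h replicate 3 and 0 with arrays centred. Cytosolic heat shock proteins and chaperones had 2 of 34 higher and 1 lower. The 2 became 0 without 70 min replicate 2 or 70 min replicate 3 and 1 without 4 h replicate 1 or 4 h replicate 2, and the 1 became 2 without 4 h replicate 2. Gdf15, a stress cytokine, stood at -0.28 ± 0.13 (limma adjusted p = 0.239).

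Most of the guidance and matrix genes that were called were higher at 4 h. Of 45 semaphorin, plexin, ephrin and Eph genes 9 were higher and 2 lower, with a median of 0.10. Epha7, an ephrin receptor, went from 7.09, 6.79 and 6.93 to 8.35, 8.74 and 8.54 (1.61 ± 0.10, limma adjusted p = 4.03e-08), and Sema3a, a secreted repellent, from 6.59, 6.09 and 6.14 to 7.37, 7.96 and 7.76 (1.42 ± 0.18), still below its controls at 8.34 to 8.46. The call of Sema3a ended without the 3 arrays of highest median (adjusted p = 0.0641). Epha4 and the ligand gene Efna4 were higher by 0.65 ± 0.09 and 0.64 ± 0.11. Epha2 went the other way, from 7.09, 6.99 and 6.78, overlapping its controls, to 5.999, 6.03 and 5.78 (-1.01 ± 0.11), and Sema7a was lower by -0.82 ± 0.11. Without 70 min replicates 2 and 3 the higher count was 4.

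Among matrix proteases and inhibitors 5 of 36 were higher and 2 lower, with a median of 0.08, and 2 and 1 without 70 min replicates 2 and 3. The 2 lower became 1 without 70 min replicate 1, 70 min replicate 2, 4 h replicate 2 or 4 h replicate 3. Adamts15, a proteoglycan-cleaving protease, stood at 6.01, 6.13 and 5.87 and then at 7.24, 7.23 and 7.26 (1.25 ± 0.10). Its 4 h arrays lay above all controls but were not called against them by limma (adjusted p = 0.501). Adamts3, a procollagen protease, was higher by 0.74 ± 0.12. Has2, which makes hyaluronan, fell from 7.31, 7.47 and 7.43 to 6.26, 6.65 and 6.53 (-0.93 ± 0.11). Of 23 fibroblast and matrix markers 5 were higher and 1 lower. Lum, the collagen-binding proteoglycan lumican, stood at 7.89, 7.52 and 7.50 and then at 8.62, 8.83 and 8.74 (1.09 ± 0.10), and Scara5, a ferritin receptor of fibroblasts, at 6.70, 6.71 and 6.61 and then at 7.74, 7.62 and 7.58 (0.97 ± 0.08). Both remained below all controls at 4 h. The mean of the fibroblast list was 9.01 to 9.05 in the controls and 8.66 to 8.74 at 70 min. It was 8.83 to 8.91 at 4 h and 8.96 to 9.08 at 8 h. This mean moved with the guidance and matrix genes, and its part in their differences was not tested. It does not stand for every marker, since 17 of the 23 were not called. Among these, the abundant Col1a1, Fn1 and Postn stood at 0.02, -0.004 and -0.01. The count of 5 was 3, and that of 1 was 0, without 70 min replicate 2, 70 min replicate 3 or 4 h replicate 2, and the 5 became 2 without both 70 min replicates.

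Endothelial markers averaged between 4.77 and 4.95 at 70 min and between 4.65 and 4.83 at 4 h, with 11 of 14 below the median gene mean, 1 higher and 2 lower. The 1 became 0 without 70 min replicate 1, 70 min replicate 2, 4 h replicate 2 or 4 h replicate 3, and the 2 became 1 whichever of the 6 arrays was left out. Smooth muscle and pericyte markers averaged between 7.52 and 7.57 and then between 7.40 and 7.51, with 1 of 13 lower. None of 20 macrophage markers was called by limma, and at an unadjusted p under 0.05 1 was higher and 5 were lower; 3 were called lower without 70 min replicate 1 and 2 without 4 h replicate 3. The cardiomyocyte markers averaged between 5.38 and 5.64 at 70 min and between 5.32 and 5.47 at 4 h, highest on 70 min replicates 2 and 3, and 2 of 20 were lower, with 1 lower without 70 min replicate 2, 4 h replicate 2 or 4 h replicate 3 and none lower when 70 min replicates 2 and 3 were both left out. The part of these cell types in the other results was not tested.

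Genes under YAP and TEAD, the effectors of the Hippo pathway, were called in both directions, 8 of 23 lower and 5 higher. Ankrd1, a stretch-responsive cardiac ankyrin repeat protein, stood at 8.79, 8.70 and 8.65 at 70 min and at 7.81, 7.66 and 7.76 at 4 h (-0.96 ± 0.07, limma adjusted p = 1.68e-07), moving further below controls at 9.03 to 9.18. Fjx1 was lower by -0.87 ± 0.11 and F3, the tissue factor gene, by -0.60 ± 0.07. By contrast Ccn1, a matricellular protein gene, rose from 9.47, 9.60 and 9.52 to 10.21, 10.14 and 10.17 (0.64 ± 0.06), and Amotl2, a YAP-binding scaffold, was higher by 0.72 ± 0.06, both still below their controls. Without 70 min replicates 2 and 3 the lower count was 4.

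In the BMP and TGF-beta family 9 of 34 genes were lower and 2 higher, with a median of -0.10. Of the ligands, Tgfb3 fell from 11.25, 11.26 and 11.27 to 10.71, 10.65 and 10.61 (-0.60 ± 0.05, limma adjusted p = 5.96e-07), Tgfb2 was lower by -0.36 ± 0.06, Bmp4 by -0.49 ± 0.06 and Gdf6 by -0.63 ± 0.12. Grem1, a secreted antagonist of BMPs, rose from 9.28, 9.09 and 9.24 to 10.28, 10.25 and 10.23 (1.05 ± 0.06), from below all controls to above them. Pmepa1, a feedback inhibitor of TGF-beta signalling, was lower by -0.74 ± 0.07. Id1, a dominant-negative partner of differentiation factors, stood at -0.60 ± 0.12, and its call ended without 70 min replicates 2 and 3 (adjusted p = 0.36) and without the 3 arrays of highest median (0.501), where 5 of the list were lower. The 2 higher became 1 without 70 min replicate 2, 70 min replicate 3, 4 h replicate 1 or 4 h replicate 2.

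Of 29 hypertrophy, hormone and cardiac factor genes 3 were higher and 4 lower, 10.3% and 13.8%, where all genes gave 4.48% and 3.15%. The median level of this list at 4 h was 6.22, above the median gene mean of 5.75. The all-gene shares are therefore a low yardstick for it. Edn1, the endothelin precursor, rose from 6.89, 6.56 and 6.87 to 7.78, 7.70 and 7.36 (0.84 ± 0.11, limma adjusted p = 0.000107), well below its controls at 8.75 to 8.85 at both times. The muscle transcription factor genes Mef2c and Mef2d were lower, by -0.75 ± 0.10 and -0.50 ± 0.07, from above all controls to below them. The natriuretic peptide genes Nppa and Nppb stood at -0.15 ± 0.13 and -0.12 ± 0.11 (limma adjusted p = 0.572 and 0.63). Without 70 min replicate 3 or 4 h replicate 1 the 3 higher genes became 1. Jph2, which ties the sarcoplasmic reticulum to the cell membrane, fell from 7.98, 7.95 and 7.90 to 6.99, 7.08 and 6.99 (-0.92 ± 0.08), and 1 of 36 calcium handling and ion channel genes was higher and 3 lower, of which 1 was lower with arrays centred or without 70 min replicates 2 and 3. Of 37 sarcomere and Z-disc genes 1 was higher and 2 lower; the 1 became 0 without 70 min replicate 2, 70 min replicate 3 or 4 h replicate 2, and the 2 became 4 without 70 min replicate 1.

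**Figure D5:**
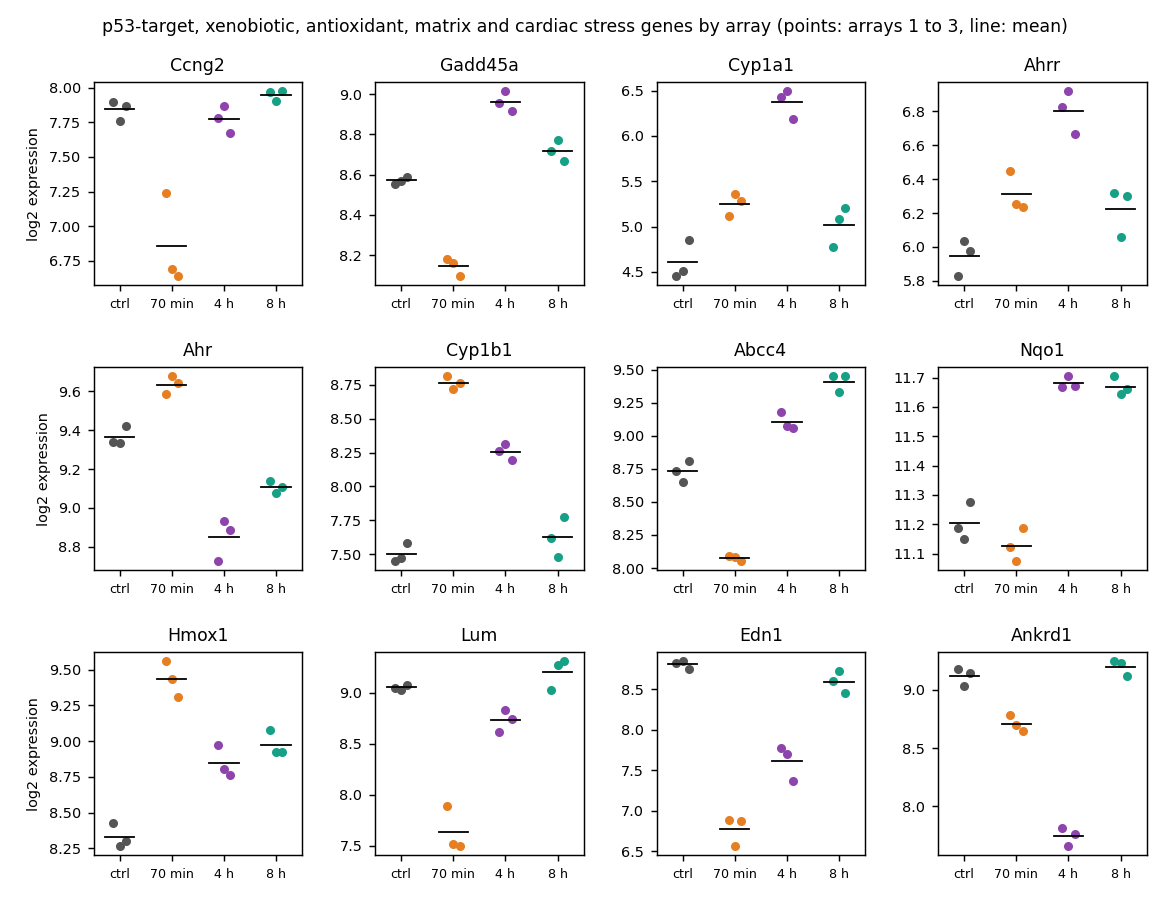
Log2 expression of 12 genes described in the text on all 12 arrays, with points for arrays 1 to 3 of each group, a line for the group mean and a vertical scale for each panel. Cyp1a1 has its highest mean at 4 h and Hmox1 at 70 min, Nqo1 is as high at 8 h (mean 11.67) as at 4 h (11.68), and Ankrd1 is lowest at 4 h.

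Second messenger genes were called in both directions. Of 30 cAMP-linked feedback genes 5 were lower and 2 higher, and 3 and 1 without 70 min replicates 2 and 3. The 2 became 1 also without 70 min replicate 1, 70 min replicate 2, 4 h replicate 2 or 4 h replicate 3. Sik1, a kinase induced by cAMP, fell from 7.25, 7.39 and 7.09 to 6.42, 5.84 and 5.90 (-1.19 ± 0.16), overlapping its controls. Rgs2, which curbs G protein signalling, was lower by -0.67 ± 0.06 and the scaffold gene Akap12 by -0.63 ± 0.06, while Pde3b, a phosphodiesterase that degrades cAMP and is inhibited by cGMP, rose from 6.41, 6.03 and 6.12 to 7.05, 7.45 and 7.05 (0.999 ± 0.13, limma adjusted p = 6.22e-05). In the nitric oxide and cGMP pathway itself 2 of 27 were higher and 1 lower, 7.41% and 3.7%. Over all genes tested these shares were 4.48% and 3.15%, so the list stood near them. The 2 became 1 without 70 min replicate 2, 70 min replicate 3 or 4 h replicate 2. The 1 became 0 without 70 min replicate 2, 70 min replicate 3 or 4 h replicate 3.

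Inflammatory genes under NF-kB were lower in 6 of 43 cases and higher in none by limma, with a median of -0.11; at an unadjusted p under 0.05 10 were lower and 1 higher. Lif, a cytokine of the interleukin-6 family, fell from 6.84, 6.70 and 7.06 to 6.13, 6.12 and 6.25 (-0.70 ± 0.11). The chemokine gene Ccl2 was lower by -0.91 ± 0.16, a call that ended without 70 min replicates 2 and 3 (adjusted p = 0.061) and without the 3 arrays of highest median (0.125), and without both 70 min replicates 3 of the 6 were called. Of 41 interferon response genes 4 were higher and none lower; the 4 became 2 without 4 h replicate 2 and none without both 70 min replicates, and 1 was lower without 70 min replicate 2. Of 20 clock genes 2 were higher and 3 lower, of which 1 was lower without both 70 min replicates. Bhlhe40, a clock repressor, fell from 9.08, 9.01 and 8.94 to 8.15, 7.93 and 7.82 (-1.04 ± 0.08), and Dbp, a clock output gene, was higher by 0.63 ± 0.07. In the base excision repair and PARP list 1 of 21 was higher and 1 lower, and both calls ended without 70 min replicate 2, 70 min replicate 3 or 4 h replicate 2, the higher also without 4 h replicate 1 and the lower also without 4 h replicate 3.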

How the data were processed

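RNA from 12 samples was biotin-labelled and hybridised to one-colour whole-transcript arrays, per the labels. Per the submitters' processing notes, the authors used RMA and the software Affymetrix Expression Console (1.3.1.187); the deposited table holds 36685 probes. The deposited values were read as log2 from their range of 1.19 to 13.63, since no unit is stated. RMA evens out total signal between arrays and compresses folds near background. Any filter used in that step is not given here by the sources.

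The platform's probe table listed 19086 probes; 18511 with 1 symbol were used, 575 with several were not, and 17599 are unnamed. Of the named probes 18394 matched a RefSeq gene identifier and 0 symbols changed. For 291 genes with several probes, the one with the highest mean was kept, leaving 18166 genes.

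All 12 arrays were fitted by group with limma 3.58.1 in R 4.3.3 (lmFit, eBayes with trend, 8 residual degrees of freedom), two-sided, with Benjamini-Hochberg adjustment over all genes tested and calls at an adjusted p under 0.05. The 4 h, 70 min, control and 8 h groups share arrays between comparisons, so each comparison's values stand side by side. The number of arrays limits the precision. Lists were described by counts and medians without a set test; 1259 of 1414 list entries, 1205 distinct genes, were tested. The comparison, the lists and the genes named were chosen with earlier results of these data known.

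Genes were named by rule: for each direction, the 12 that differed most among called genes whose groups did not overlap and whose higher mean reached 5.75, passing over unnamed loci, numbered olfactory and vomeronasal receptors and small RNAs; of each list up to 4 called members in each direction and further members by size; and 15 stress and cardiac genes always. Klf4, Klf10, Rhob, Map2k3, Spred1, Bmp4, Efna4, Epha4, Nop56, Pcna, Mcm6 and the marker genes given with control levels were added after their values were seen.

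Alternatives were eBayes in its robust form or with no trend, weights for arrays, replicate number as a block, a further quantile normalization, arrays centred on their medians, the array median as a covariate, only brighter genes, all probes of a gene averaged, every probe, the compared arrays alone, a fold of at least 1.5, each array left out, 70 min replicates 2 and 3 left out, and the 3 arrays of highest median left out.

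On simulated data for this comparison over 18166 genes, the calculation made 4 false calls and found 91% of 100 genes shifted by a log2 value of 1, 42% of 50 shifted by 0.5 and 10% of 50 shifted by 0.3. Tables and figures were made with Python 3 and matplotlib.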

Additional observations from a re-analysis of the deposited data

Results flagged for a closer look

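In 87 genes called higher at 4 h the 3 arrays at 70 min all lay below all controls and the 3 at 4 h all above them, and in 94 genes called lower the order was the reverse. Among the 24 leading genes this held for Bcl2l11 (log2 difference, 4 h minus 70 min, 1.845), Lgr4 (1.496), Il15 (1.299) and Adamts15 (1.246), which went from below to above the controls. It held in the other direction for Olr1 (-2.226), Lmcd1 (-1.659), Frmd4a (-1.496), Phlda1 (-1.484), Lbh (-1.245), Bcl2 (-1.242) and Spred2 (-1.24). The difference between the times was tested by limma for each of these genes, and crossing was defined by the position of the arrays alone. Against control at 4 h, limma called Bcl2l11 (adjusted p = 0.0064) and Lgr4 (0.00214) higher. It did not call Il15 (adjusted p = 0.457) or Adamts15 (0.501), so their rise above control rests on array position. Among the genes not called between the times, 13 went from below to above all controls and 8 took the reverse course. Of the 17599 probes that the platform table does not list, 30 differed between the times by the same limma rule, 17 higher and 13 lower.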

How the results depend on the processing

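With all arrays 1386 genes were called, 814 higher and 572 lower. Counts were lower when the prior variance had no trend (998, 574 and 424), with arrays centred (1008, 738 and 270), when the array median entered as a covariate (1082, 504 and 578), with the compared arrays alone (763, 419 and 344), with a fold of at least 1.5 added (396, 256 and 140; 427, 277 and 150 when p was unadjusted), without 70 min replicates 2 and 3 (352, 156 and 196) and without the 3 arrays of highest median (318, 159 and 159, of which 307 had been called with all arrays). With the array median as covariate only the total and the higher count fell, since the 578 lower genes were more than the 572 with all arrays. Leaving out 1 array gave 885 to 1799 called, 489 to 1168 higher and 396 to 631 lower. The other alternatives gave 1357 (the replicate block) to 1592 (brighter genes alone). Deviations of same-numbered arrays from their group means had correlations of 0.0159, -0.322 and 0.24. With 3 arrays a group these values cannot decide whether the numbers pair the samples. With a replicate block 1357 genes were called, and 1278 of these were shared with the fit without it. Of 203 called genes named here or among list examples, 147 stayed called whichever single array was left out and 95 under every alternative. The median of 27 of 43 lists kept its sign in every alternative. The leading gene that lost its call in an alternative was Sema3a.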

Other observations

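Levels at 8 h of some genes described above were as follows. Nqo1 and Abcc4 stayed high at 8 h (means 11.67 and 9.41, against 11.20 and 8.73 in the controls), as did Hmox1 at 8.98 against 8.33. The replication list stood above its controls at both earlier times and at 6.58 against 6.59 at 8 h. Olr1 was at 5.54 at 8 h against 6.54 in the controls.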
